A study of Mus musculus with 8 samples.

Results

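The small leucine-rich proteoglycans (SLRPs) were examined in hippocampal RNA-seq of control mice and of mice with a conditional knockout of SAP97 (SAP97-cKO). The 10 SLRP genes Ogn, Omd, Dcn, Lum, Bgn, Fmod, Prelp, Aspn, Ecm2 and Podn were taken by symbol from the 25834 genes of the count table, and all 10 were among the 16251 genes that passed the filter on low counts. The family was chosen by the lower counts of Ogn and Omd in SAP97-cKO than in control libraries, so the genotype difference of its members is given below as a description, with no p-value, and a count of members past the study's threshold is not a test of the family. The study asked which hippocampal transcripts differ when SAP97, a scaffold protein of the postsynaptic density, is lost. SAP97-cKO mice were Nestin-cre+/-; SAP97 fl/fl, in which the Nestin promoter drives Cre recombinase in precursors of neurons and glia. Controls were their littermates, which the methods give as Nes-cre+/-, SAP97 fl/fl or wild-type animals, and the sources used here give neither the genotype behind each control library nor the age of the sequenced mice. Each group held 4 male mice with 1 library per mouse.

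SLRPs are secreted proteins of the extracellular matrix built around a chain of leucine-rich repeats, and many of them carry chondroitin, dermatan or keratan sulfate chains. They bind to collagen fibrils and set how fibrils grow and are spaced, and several of them also hold growth factors of the TGF-beta family. In the brain their transcripts are known mainly from fibroblasts of the meninges and of large vessels. The classes differ in their sequence: Dcn, Bgn and Aspn are decorin-like, Fmod, Lum, Prelp and Omd are fibromodulin-like, Ogn belongs with epiphycan and opticin, and Podn forms a class with podocan-like protein.

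Libraries held 37388177 to 37426572 counts, since the authors resampled them to a common depth, and TMM factors lay between 0.9637 and 1.031. Dlg1, the gene for SAP97, had 4127, 4549, 3982 and 4690 TMM-normalized counts in the control libraries and 2353, 3064, 2143 and 2008 in the SAP97-cKO libraries, a log2 fold change of -0.86 (SE 0.12, edgeR adjusted p = 0.143), and no library went against its label. Over all genes tested, 46 were lower and 2 higher in SAP97-cKO at the study's false discovery rate (FDR) of 0.25. The 11 hippocampal neuron markers summed to 10300 to 13200 CPM across the 8 libraries, where CPM is the count scaled to the effective library size, and no marker of any list used here was at 0.

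The start regions of the genes that chose the family, Ogn and Omd, and of Fmod, whose ratio of SAP97-cKO to control lay between theirs, are shown because their transcripts had the largest differences between genotypes among the 10 members. Each holds 250 bases before and 50 after a RefSeq transcription start on GRCm38.p6, all on the plus strand: Ogn at chr13:49607765-49608064, Omd at chr13:49582212-49582511 and Fmod at chr1:134037004-134037303. Capitals mark matches, on either strand, to 5 short motifs. The TATA box was searched as TATAAA, and the box bound by nuclear factor Y as CCAAT. The GC box bound by Sp1 was searched as GGGCGG. The motif of TEAD factors was searched as GGAATG, and that of AP-1 as TGACTCA.
Ogn: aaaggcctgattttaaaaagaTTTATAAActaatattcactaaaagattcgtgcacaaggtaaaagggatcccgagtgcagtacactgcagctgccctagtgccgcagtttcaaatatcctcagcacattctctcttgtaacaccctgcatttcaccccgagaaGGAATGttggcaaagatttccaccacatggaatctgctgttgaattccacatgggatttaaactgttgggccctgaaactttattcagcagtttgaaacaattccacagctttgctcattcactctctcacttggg
Omd: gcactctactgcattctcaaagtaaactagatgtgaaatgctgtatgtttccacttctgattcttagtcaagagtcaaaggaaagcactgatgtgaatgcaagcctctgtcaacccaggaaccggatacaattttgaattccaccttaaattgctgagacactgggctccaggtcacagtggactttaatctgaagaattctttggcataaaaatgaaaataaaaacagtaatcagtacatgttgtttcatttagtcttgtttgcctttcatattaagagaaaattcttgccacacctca
Fmod: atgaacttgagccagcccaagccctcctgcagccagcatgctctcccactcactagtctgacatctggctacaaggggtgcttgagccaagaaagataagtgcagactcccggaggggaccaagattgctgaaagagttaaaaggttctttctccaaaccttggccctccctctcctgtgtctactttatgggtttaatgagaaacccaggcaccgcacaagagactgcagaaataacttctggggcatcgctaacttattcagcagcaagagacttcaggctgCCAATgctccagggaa

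The Ogn region held TATAAA on both strands as an overlapping pair, with first bases at -229 and -227 from the start, and GGAATG at -86. The Fmod region held CCAAT at 35 bases past the start, and the Omd region held none of the 5 motifs. Of 32544 promoters of the same length in the RefSeq table, 13.6% held the TATA box, 14.6% the TEAD motif, 37.4% the CCAAT box, 35.9% the GC box and 5.19% the AP-1 motif. Among the 8 members with an entry, the TATA box was found in Aspn and Ogn, the CCAAT box in Aspn, Fmod and Prelp, and the GC box in Bgn, Ecm2 and Podn. GC content was 42.3% for Ogn, 37.7% for Omd and 51.0% for Fmod, against a median of 53.0% over all promoters. Dcn and Lum had no entry. A match describes letters only.

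Ogn encodes osteoglycin (mimecan), a keratan sulfate proteoglycan of cornea and bone that takes part in collagen fibril assembly. Ogn (ENSMUSG00000021390) had 666.2, 990.2, 557.3 and 671.5 TMM-normalized counts in the control libraries and 306.4, 342.4, 315.0 and 191.0 in the SAP97-cKO libraries. Every SAP97-cKO library lay below every control library. The means were 721.3 ± 186.8 (SD, n = 4) and 288.7 ± 66.92 (SD, n = 4), so that SAP97-cKO stood at 40.02% of control, with a log2 fold change of -1.32 (SE 0.21).

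Omd encodes osteomodulin (osteoadherin), a keratan sulfate proteoglycan that binds to mineralized matrix. Omd (ENSMUSG00000048368) had 63.02, 123.5, 39.81 and 78.6 TMM-normalized counts in control and 7.126, 35.83, 6.077 and 13.49 in SAP97-cKO libraries, again without overlap, although SAP97-cKO 2 lay just under control 3. SAP97-cKO stood at 20.5% of control, with a log2 fold change of -2.27 (SE 0.53). Omd had the fewest reads of the members, 371 over the 8 libraries, and its SAP97-cKO libraries differed 5.895-fold among themselves.

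Fmod encodes fibromodulin, which binds to type I collagen and guides its cross-linking. Fmod (ENSMUSG00000041559) had 793.2, 981.3, 441.8 and 656.9 TMM-normalized counts in control and 212.8, 489.6, 243.1 and 109.0 in SAP97-cKO libraries. In Fmod the groups overlapped, since SAP97-cKO 2 lay above control 3, and the other 3 SAP97-cKO libraries lay below all controls. SAP97-cKO stood at 36.7% of control, with a log2 fold change of -1.44 (SE 0.39).

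Lum encodes lumican, the keratan sulfate proteoglycan that keeps corneal collagen evenly spaced, and Aspn encodes asporin, a decorin relative with an aspartate-rich end that binds to TGF-beta. Lum had 250.1, 333.7, 238.8 and 202.8 TMM-normalized counts in control and 141.5, 140.3, 192.5 and 153.6 in SAP97-cKO libraries, with a log2 fold change of -0.71 (SE 0.17). Aspn had 65.02, 94.64, 83.5 and 68.9 in control and 58.03, 34.83, 55.71 and 41.52 in SAP97-cKO libraries, with a log2 fold change of -0.71 (SE 0.22). Neither gene's groups overlapped, and SAP97-cKO stood at 61.23% of control for Lum and at 60.92% for Aspn.

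Ecm2 encodes a matrix protein with leucine-rich repeats, and Prelp encodes PRELP, which ties basement membranes to collagen through heparan sulfate. Ecm2 had 326.1, 471.2, 401.0 and 315.4 TMM-normalized counts in control and 286.1, 294.6, 292.7 and 226.3 in SAP97-cKO libraries, with no overlap and a log2 fold change of -0.46 (SE 0.15). Prelp had 1258, 1886, 1460 and 1079 in control and 1042, 1234, 1047 and 772.2 in SAP97-cKO libraries, with a log2 fold change of -0.47 (SE 0.18). Prelp differed from Ecm2 in that SAP97-cKO 2 lay within the range of the controls.

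Bgn and Dcn encode biglycan and decorin, which carry chondroitin or dermatan sulfate, and of which biglycan is also a ligand of Toll-like receptors and decorin a TGF-beta trap. Bgn had 609.2, 858.7, 571.9 and 605.5 TMM-normalized counts in control and 620.0, 505.6, 606.7 and 385.1 in SAP97-cKO libraries, with a log2 fold change of -0.32 (SE 0.17) and overlapping groups. Dcn had 2565, 1526, 1184 and 3068 in control and 609.8, 2481, 2299 and 2910 in SAP97-cKO libraries. High and low Dcn libraries occurred in both genotypes, and the means of 2086 ± 879.4 and 2075 ± 1010 (SD, n = 4 each) differed by a log2 fold change of -0.01 (SE 0.42).

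Podn encodes podocan, a collagen-binding SLRP known from kidney podocytes and vascular smooth muscle. It had 53.016, 70.731, 52.428 and 72.777 TMM-normalized counts in control and 41.74, 104.5, 58.749 and 43.593 in SAP97-cKO libraries, so that the highest and the lowest Podn libraries were both SAP97-cKO. SAP97-cKO stood at 99.85% of control, with a standard error of 0.30 on the log2 scale. For Dcn and Podn the sign of the fold change depended on the setting: over 16 other settings it was opposite in 3 for Dcn and in 10 for Podn.

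**Figure D1:**
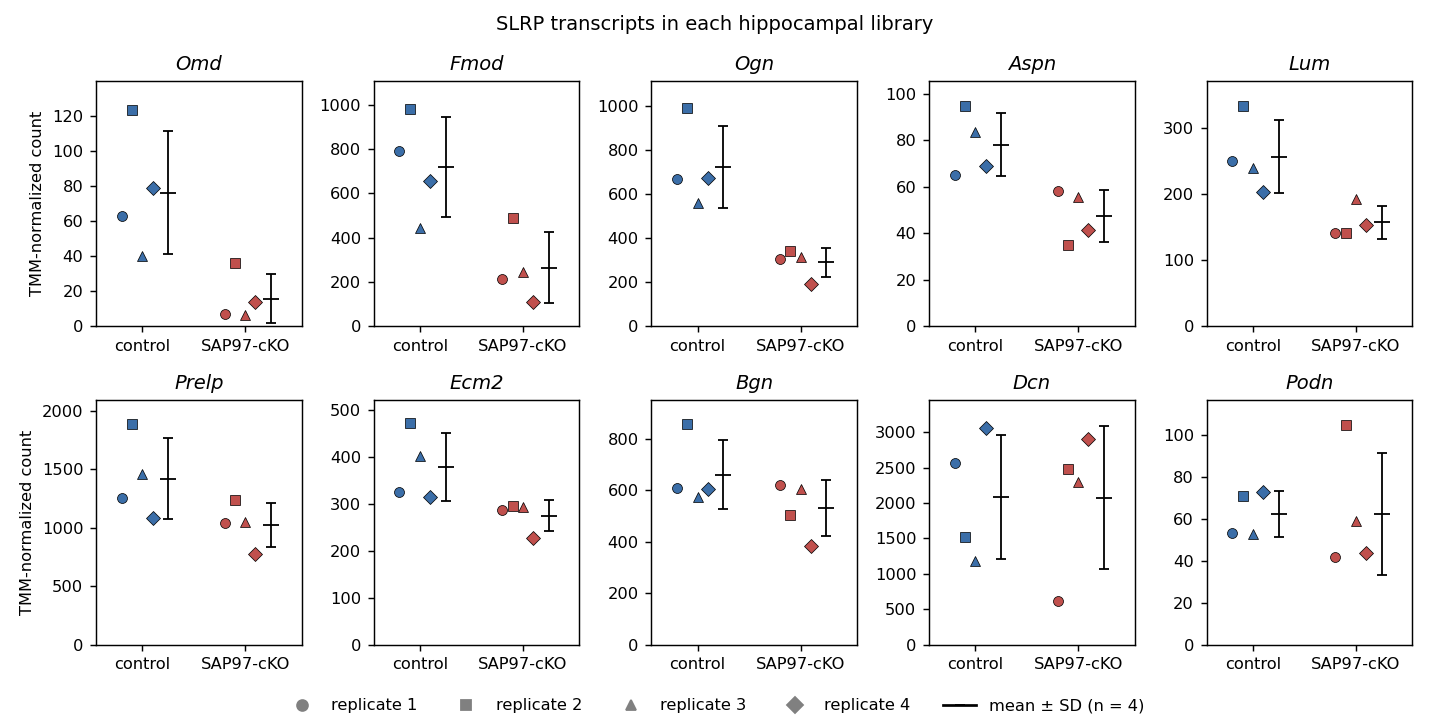
TMM-normalized counts of the 10 SLRP genes in each library (vertical axes from 0), with control libraries in blue, SAP97-cKO libraries in red, a marker shape for each replicate number, and bars for the mean ± SD (n = 4 mice). Panels run from the lowest to the highest log2 fold change; the groups do not overlap for Omd, Ogn, Aspn, Lum and Ecm2, and they overlap widely for Dcn.

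In 5 of the 10 members (Ogn, Omd, Aspn, Lum and Ecm2) every SAP97-cKO library lay below every control library, beside 3.47% of all genes tested. In the edgeR fit Ogn alone passed the FDR of 0.25, 1 of 10 members, beside 0.283% of all genes tested called lower and 0.0123% called higher. The study's own limma-voom comparison of these libraries listed both Ogn and Omd at that FDR. Its list prints their log fold changes with opposite signs, Omd with the sign of Dlg1 and Ogn with the other. Both were lower in SAP97-cKO in the counts used here. The limma-voom fit run here called Ogn and not Omd, so the choice of tool alone does not account for the listing of Omd. The family was chosen for its lowest members in this contrast, so neither count is read as a result about the members. The median log2 fold change was -0.59 over the 10 members and -0.01 over all genes tested. The call of Ogn was lost without control 2, without SAP97-cKO 3 or without SAP97-cKO 4, each of which left 0 members past the threshold, while 7 members passed without control 1, 4 without SAP97-cKO 1, 3 without SAP97-cKO 2 and 2 without control 3. In those fits 10.2%, 4.32%, 0.299% and 0.335% of all genes tested passed in either direction, beside 0.295% over 8 libraries. The log2 fold changes themselves moved less: leaving out 1 library at a time, that of Ogn lay between -1.41 and -1.13, and that of Omd between -3.08 and -1.94.

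Meningeal fibroblast markers were set beside the members, on a list written, like all lists here, with earlier results of these data known. Of 15 such markers, none of which is a member, all 15 had a log2 fold change below 0, beside 52.8% of all genes tested. In edgeR 5 passed the threshold, and in 9 no SAP97-cKO library reached the lowest control, beside 0.283% called lower and 3.47% of all genes. The 5 that passed, Col1a2, Col3a1, Slc6a13, Slc22a6 and Aldh1a2, are also on the study's list of differing genes. These counts therefore describe the list and are no test of it. Their summed level overlapped between genotypes, at 237.0 to 619.0 CPM in control and 113.0 to 282.0 CPM in SAP97-cKO libraries. The most abundant of them per exon length were Igf2, an insulin-like growth factor, with 5977 ± 3659 and 3477 ± 1330 TMM-normalized counts (SD, n = 4 each), and its binding protein Igfbp2 with 2328 ± 1335 and 1454 ± 531.9, and neither passed the threshold (edgeR adjusted p = 0.474 and 0.490). In bulk tissue, fewer cells of a type and less RNA per cell cannot be told apart.

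The mean log2 CPM of the same 15 markers, centred on the mean of the 8 libraries, was 0.472, 0.947, 0.227 and 0.362 in control 1 to 4 and -0.503, -0.01, -0.352 and -1.15 in SAP97-cKO 1 to 4. Control 2, the library with the highest Ogn, Omd and Fmod, had the highest score, and SAP97-cKO 4, with the lowest Ogn and Fmod, had the lowest. With this score as a covariate in the edgeR model, the log2 fold change of Ogn was -0.44 (SE 0.17), that of Omd -0.86 (SE 0.74), that of Fmod 0.12 (SE 0.25), that of Aspn -0.59 (SE 0.42) and that of Lum -0.42 (SE 0.31). Prelp then had 0.17 (SE 0.20), Bgn 0.26 (SE 0.23), Ecm2 -0.05 (SE 0.22), Dcn -0.30 (SE 0.73) and Podn 0.81 (SE 0.40), so that 6 of 10 members were below 0 and the median was -0.17. The score follows the genotype, since its values did not overlap between groups, so marker level and genotype cannot be fully told apart in these 8 libraries. Its markers were also listed with earlier results of these data known, and 5 of them were called lower here. A smaller genotype difference beside the score was therefore in part fixed in advance.

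**Figure D2:**
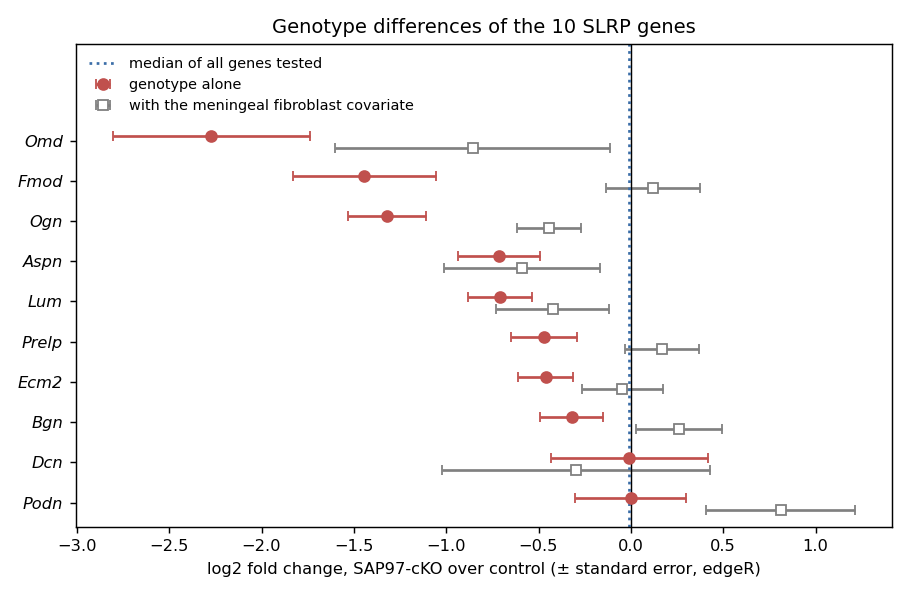
Log2 fold change of each SLRP gene, SAP97-cKO over control, with its standard error, from edgeR with genotype alone (red circles) and with the meningeal fibroblast marker score added (open squares); the dotted line is the median of all genes tested. With the score added, Fmod moves from -1.44 to 0.12 and Ogn from -1.32 to -0.44. The markers of the score were listed with earlier results of these data known.

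Other marker lists were measured beside the members, and their part in the result was not tested. Of 9 perivascular fibroblast markers 8 were below 0, beside 52.8% of all genes tested. In edgeR 2 passed the threshold, Spp1 and Mgp, beside 0.283% of all genes called lower, and both are on the study's list of differing genes. The summed levels were 202.0 to 226.0 CPM in control and 160.0 to 186.0 CPM in SAP97-cKO. The most abundant per exon length were Mgp, an inhibitor of calcification, which fell from 919.3 ± 192.9 to 459.2 ± 103.1 TMM-normalized counts (edgeR adjusted p = 0.201), and Cygb, a globin, with 2458 ± 203.7 and 2339 ± 217.4 (adjusted p = 0.733). All 12 mural cell markers and all 10 endothelial markers were below 0 and 0 passed in edgeR and in limma-voom, while DESeq2 called 4 and 1 of them and edgeR gave 4 and 1 an unadjusted p under 0.05. Their sums came to 245.0 to 266.0 against 149.0 to 245.0 CPM for mural cells and 303.0 to 324.0 against 213.0 to 356.0 CPM for endothelium. The most abundant per exon length were Rgs5, with 3731 ± 277.1 and 3205 ± 665.6 TMM-normalized counts, and Vtn, with 2077 ± 160.8 and 1372 ± 310.1, of mural cells, and Itm2a, with 2393 ± 302.3 and 1843 ± 284.6, and Cldn5, with 1338 ± 190.4 and 1125 ± 246.5, of endothelium (edgeR adjusted p between 0.316 and 0.523).

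The choroid plexus epithelium list varied most between libraries, from 182.0 to 7010 CPM in control and from 105.0 to 2410 CPM in SAP97-cKO libraries, with all 13 markers below 0. None passed the edgeR threshold, an unadjusted p under 0.05 or the threshold in limma-voom or DESeq2. Ttr, the thyroxine carrier secreted by this epithelium, had 101600 ± 101600 TMM-normalized counts in control and 36450 ± 33950 in SAP97-cKO libraries, and the chloride channel protein gene Clic6 had 1999 ± 1766 and 774.7 ± 632.9 (edgeR adjusted p = 0.583 and 0.496). In both genes the SD within a genotype was close to the mean.

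Lists of neurons and glia had median log2 fold changes of 0.07 for 8 astrocyte, -0.47 for 8 oligodendrocyte, -0.02 for 8 microglia and 0.13 for 11 neuron markers. In that order these lists had 1, 8, 4 and 2 markers below 0, beside 52.8% of all genes tested. In edgeR and in limma-voom 0 of their genes passed, in DESeq2 1, 2, 0 and 3 passed, and 2, 5, 0 and 4 had an unadjusted edgeR p under 0.05. Their sums overlapped between genotypes, at 5220 to 5940 against 5470 to 6890 CPM for astrocytes, 5560 to 8940 against 4340 to 7840 CPM for oligodendrocytes, 409.0 to 534.0 against 394.0 to 506.0 CPM for microglia and 10300 to 11700 against 11400 to 13200 CPM for neurons. Control values are given first in each pair. Among their most abundant genes per exon length the log2 fold changes were 0.11 for Slc1a2 and 0.29 for Gfap (astrocytes), -0.47 for Mbp (myelin), -0.08 for C1qb (microglia) and -0.03 for Snap25 and 0.28 for Camk2a (neurons), with edgeR adjusted p between 0.374 and 0.888.

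The members also varied within genotype, which the choice of the family did not use. The SD of log2(CPM + 0.5) around the genotype means was 0.852 for Dcn, higher than in 99.4% of genes tested, 0.669 for Fmod and 0.528 for Omd. It was 0.348 for Ogn and lowest for Ecm2, at 0.219, where the median of all genes was 0.16. The added 0.5 shrinks the spread of genes with few reads, so Omd is not read as less variable than Dcn. As SD over mean, Omd had 46.34% in control and 88.65% in SAP97-cKO, and Dcn 42.16% and 48.67%. All genes of a library share its dissection, so Pearson's r of the log2 deviations over the 8 libraries is a description. It was 0.957 between Prelp and Ecm2, 0.889 between Ogn and Bgn and 0.864 between Ogn and Fmod. It was 0.574 between the neighbours Ogn and Omd and -0.0512 between Dcn and Lum. Dcn had a negative r with 6 of the other 9 members, the lowest being -0.703 with Aspn.

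The deviations of the members were also set beside those of the marker lists (n = 8 libraries, a description, with no test of differences between lists). With the mean of the meningeal fibroblast markers r was 0.959 for Ogn, 0.942 for Fmod, 0.848 for Prelp, 0.765 for Bgn and 0.739 for Ecm2. With perivascular fibroblast markers Ogn had r of 0.814. Prelp and Ecm2 had r of 0.894 and 0.929 with perivascular fibroblast markers and 0.959 and 0.918 with choroid plexus markers. Bgn had r of 0.837 with perivascular fibroblast and 0.815 with mural cell markers. Dcn had r of -0.12 with the meningeal list and its lowest value, -0.849, with endothelial markers.

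**Figure D3:**
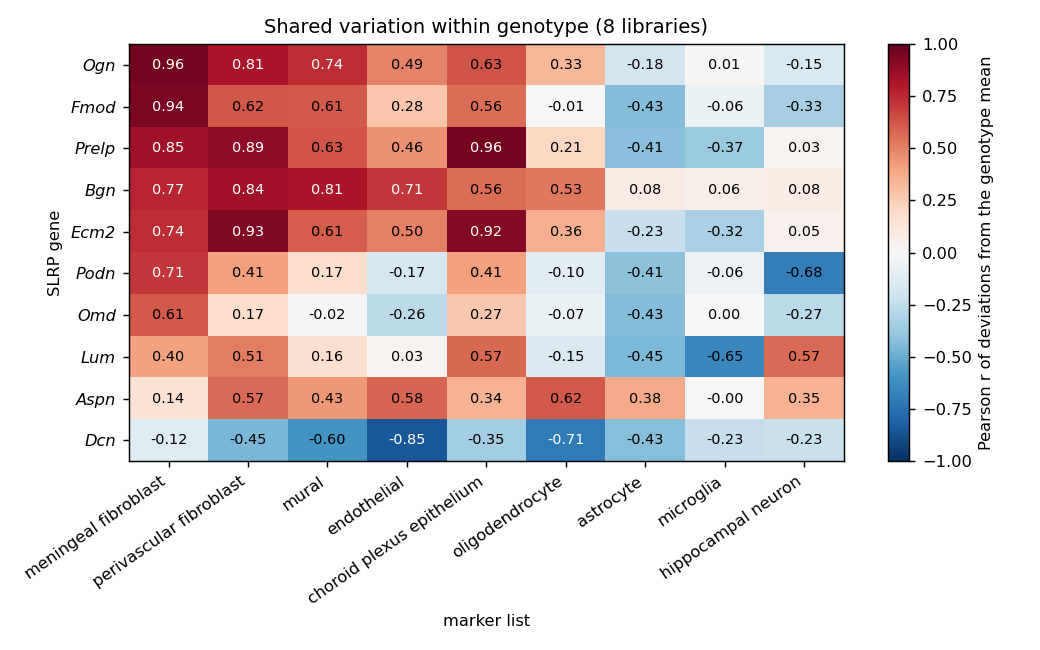
Pearson's r, over 8 libraries, between the deviations of each SLRP gene (rows) and of the mean of each marker list (columns) from their genotype means, coloured from -1 (blue) to 1 (red). Ogn and Fmod are highest in the meningeal fibroblast column, Prelp in the choroid plexus column, and Dcn is below 0 in every column.

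Among 14066 other genes with a mean of at least 1 CPM, the 3 whose deviations were most like those of Ogn were Adamtsl3, Foxd1 and Bmp4, with r of 0.971, 0.965 and 0.965 over 8 libraries. The genes named here were picked for the highest r out of many over few libraries. Their high r is therefore a description, and a shared function was not tested. Foxd1, a forkhead transcription factor, is 1 of the 15 meningeal markers, Bmp4 is a bone morphogenetic protein, and Adamtsl3 is a secreted matrix protein. Their TMM-normalized counts were 102.1 ± 23.75 and 81.75 ± 23.17 for Adamtsl3, 76.74 ± 22.11 and 41.74 ± 14.15 for Foxd1 and 124.4 ± 32.99 and 85.64 ± 17.16 for Bmp4 (control, then SAP97-cKO; SD, n = 4), and none passed the edgeR threshold (adjusted p = 0.606, 0.364 and 0.400). The genes most like Omd included Cxadr (r = 0.964), a receptor of cell junctions, and Gm2011 (0.961), and the 3 most like Dcn were Pja1 (0.993) and Rnf34 (0.981), both ubiquitin ligases, and Abt1 (0.987), a transcription activator. Pja1 had 8590 ± 446.2 and 9116 ± 789.9 TMM-normalized counts in control and SAP97-cKO.

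Levels of different genes were compared per length, as CPM per kilobase of exon, on the union of annotated exons. In control libraries Prelp stood at 10.51 ± 2.565 (SD, n = 4), Dcn at 9.552 ± 4.027, Ogn at 7.515 ± 1.947, Fmod at 5.809 ± 1.838, Bgn at 2.899 ± 0.5816 and Lum at 2.8 ± 0.6048. The less abundant members were Ecm2 at 1.782 ± 0.3421, Omd at 0.9063 ± 0.4199, Aspn at 0.886 ± 0.155 and Podn at 0.3897 ± 0.06901 on the same scale. In SAP97-cKO libraries Ogn stood at 3.008 ± 0.6972, Fmod at 2.132 ± 1.304 and Omd at 0.1858 ± 0.1647, below Podn at 0.3891 ± 0.1831. The level of Dcn depends on its gene model: by the length of its longest coding transcript it was 31.72 in control libraries, where Prelp stayed at 10.51, and Bgn was 7.309. Ecm2 also depends on its gene model: by that length it was 2.813 in control libraries, where Lum stayed at 2.8.

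Over all 8 libraries the order of the geometric means was Prelp, Dcn, Ogn, Fmod, Bgn, Lum, Ecm2, Aspn, Podn and Omd, from 8.764 down to 0.3456 on that scale. Of the 9 pairs of neighbours in this order, 3 differed beyond their spread in an exact two-sided paired sign-flip permutation test with Benjamini-Hochberg adjustment over the 9 pairs. Lum was above Ecm2 by 0.52 on the log2 scale and Ecm2 above Aspn by 1.15, each in 8 of 8 libraries (exact p = 0.007812, the smallest 8 libraries can give; adjusted p = 0.0352), and Aspn was above Podn by 0.87 in 7 of 8 (exact p = 0.0156; adjusted p = 0.0469). Prelp and Dcn (exact permutation test, adjusted p = 0.930), Dcn and Ogn (0.127), Ogn and Fmod (0.0527), Fmod and Bgn (0.402), Bgn and Lum (0.129), and Podn and Omd (0.914) were not told apart. The test pooled both genotypes, so orders that differ between genotypes cancel, and a high p is not read as equal levels. Mean Omd stood above Podn in control (0.9063 and 0.3897) and below it in SAP97-cKO (0.1858 and 0.3891). Mean Fmod likewise stood above Bgn in control (5.809 and 2.899) and below it in SAP97-cKO (2.132 and 2.32). With 7 libraries, without control 1, control 4, SAP97-cKO 3 or SAP97-cKO 4, 0 of the 9 pairs passed. The step from Lum to Ecm2 also rests on the exon union, since by longest coding transcript they stood at 2.8 and 2.813 in control libraries.

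**Figure D4:**
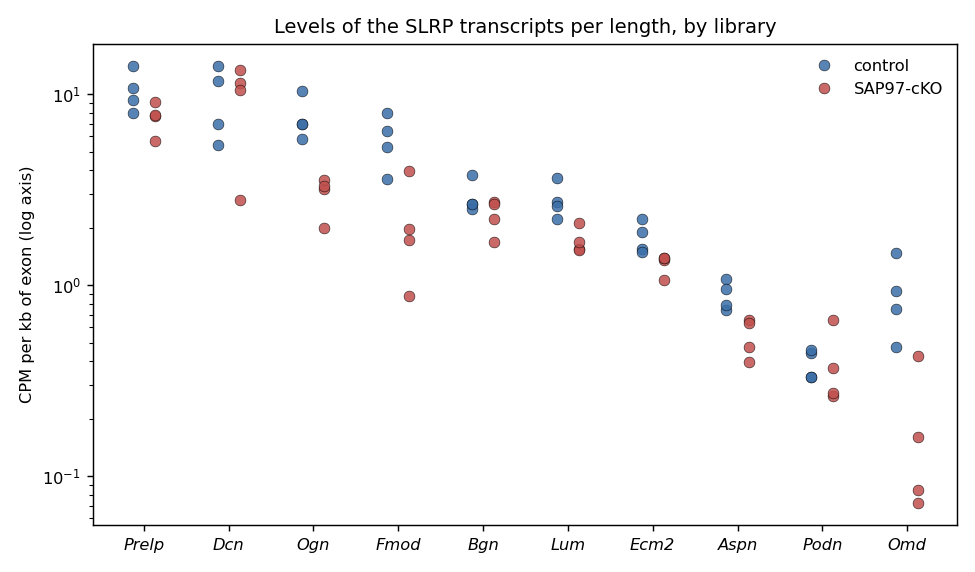
Level of each SLRP transcript in CPM per kilobase of exon (log axis), with a point for each control (blue) and SAP97-cKO (red) library and genes ordered by the geometric mean of 8 libraries. Prelp and Dcn are the most abundant, and the Omd libraries spread from 0.07224 to 1.468.

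Position was not used to choose the family. Ecm2, Aspn, Omd and Ogn lie next to each other on chromosome 13 (plus strand, build GRCm38), at chr13:49504810-49532789, chr13:49544443-49567565, chr13:49582462-49592822 and chr13:49608046-49624501 (GENCODE M21), with gaps of 11654, 14897 and 15224 bases. The log2 fold changes along this row were -0.46, -0.71, -2.27 and -1.32. All 4 genes lie inside the body of Cenpp, a centromere protein gene read from the minus strand, whose exons overlap those of Aspn by 7 bases and those of the other 3 by none. Cenpp itself had 54.19 ± 9.749 and 51.6 ± 14.0 TMM-normalized counts in control and SAP97-cKO, with a log2 fold change of -0.07 (SE 0.24, edgeR adjusted p = 0.918).

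The genes on either side also missed the edgeR threshold: Ippk, an inositol phosphate kinase gene, had a log2 fold change of -0.14 (SE 0.13, adjusted p = 0.658), Nol8, a nucleolar protein gene, 0.07 (SE 0.09, adjusted p = 0.750), and Iars, an isoleucine tRNA ligase gene, 0.03 (SE 0.08, adjusted p = 0.898). The sources used here do not say if reads were counted by strand, and without it, reads of Cenpp and Aspn in the shared bases cannot be told apart. Tes3-ps, Gm25394 and Gm23482, annotated within 100 kb, were not analysed here.

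**Figure D5:**
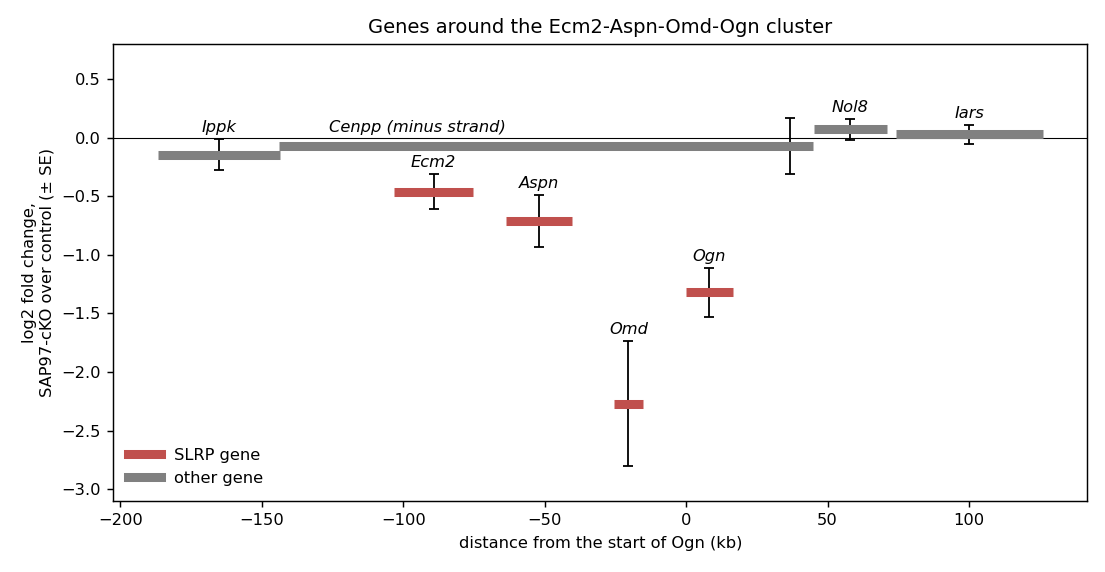
Genes within 100 kb of the 4 clustered SLRP genes, drawn to scale along the horizontal axis as distance from the start of Ogn in kilobases, at a height equal to the log2 fold change of SAP97-cKO over control (error bars, standard error from edgeR). The SLRP genes (red) lie between -0.46 and -2.27, and Ippk, Cenpp, Nol8 and Iars (grey) between -0.14 and 0.07.

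A second pair, Dcn at chr10:97479609-97518143 and Lum at chr10:97565128-97572703, is separated by 46985 bases on the plus strand of chromosome 10. Their log2 fold changes were -0.01 (SE 0.42) and -0.71 (SE 0.17). Farther along the same strand lie 2 more SLRP genes, Kera (keratocan), with 8 reads over all libraries and not tested, and Epyc (epiphycan), with 44.51 ± 18.81 and 47.31 ± 11.34 TMM-normalized counts (log2 fold change 0.09, SE 0.33, edgeR adjusted p = 0.929). Prelp, at chr1:133910304-133921414 on the minus strand, and Fmod, at chr1:134037254-134048277 on the plus strand, share a region of chromosome 1 with the SLRP gene Optc (opticin), which lies 2305 bases from Prelp. Optc had 8.79 ± 5.819 TMM-normalized counts in control and 16.2 ± 4.415 in SAP97-cKO libraries (log2 fold change 0.87, SE 0.47, adjusted p = 0.479), so it pointed the other way from Prelp and Fmod without passing the threshold. Bgn lies at chrX:73483602-73495933 and Podn at chr4:108014791-108096445.

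The genes that act with SLRPs were read from 5 lists, in which 86 of 96 named genes were tested and 4 passed the edgeR threshold, beside 0.283% of all genes called lower and 0.0123% called higher. None of the 4 passed without control 2, without SAP97-cKO 3 or without SAP97-cKO 4, whereas 14 passed without control 1 and 13 without SAP97-cKO 1, where 10.2% and 4.32% of all genes tested passed. With the meningeal score as a covariate 0 of the 86 passed and 4 had an unadjusted edgeR p under 0.05, beside 3.97% of all genes tested. In that fit 0 of all 16251 genes passed. The score follows the genotype, and Col1a1, Col1a2 and Col3a1 are both among its markers and on these lists. The count of 0 was therefore in part fixed in advance and is no result about the lists. Of the other SLRP family genes 5 of 8 were tested, and 0 passed in edgeR, limma-voom or DESeq2 or at an unadjusted edgeR p under 0.05. The most abundant of them per exon length were Chadl (chondroadherin-like), with 410.5 ± 40.68 and 400.3 ± 28.61 TMM-normalized counts in control and SAP97-cKO, and Tsku (tsukushi), with 100.3 ± 33.64 and 67.99 ± 28.2 (adjusted p = 0.902 and 0.510).

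Fibril collagens and the enzymes that cross-link them, the partners of SLRPs in the matrix, held 3 of the 4 genes that passed. Col3a1, the chain of type III collagen, fell from 223.4 ± 45.49 to 95.9 ± 31.01 TMM-normalized counts (log2 fold change -1.22, SE 0.23, edgeR adjusted p = 0.201). Col1a2, a chain of type I collagen, fell from 999.5 ± 220.3 to 494.4 ± 103.8 (-1.01, SE 0.18, adjusted p = 0.190), and Serpinh1, the chaperone HSP47 of newly made collagen, from 986.1 ± 79.02 to 649.6 ± 104.2 (-0.60, SE 0.12, adjusted p = 0.210). Over the list 20 of 23 tested genes were below 0, with a median log2 fold change of -0.35 beside -0.01 for all genes. Plod3, a lysyl hydroxylase and, after Serpinh1, the most abundant gene of the list per exon length, had a log2 fold change of -0.13 (adjusted p = 0.518). Col1a1, Col1a2 and Col3a1 are also on the list of meningeal fibroblast markers.

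Of 27 genes of glycosaminoglycan chain synthesis, which build the sugar chains of SLRPs, 11 were below 0 and 0 passed in edgeR, where 4 had an unadjusted p under 0.05, and 0 in limma-voom and 3 in DESeq2. The most abundant per exon length, the keratan sulfate sulfotransferase Chst1 and the linker enzyme B3gat3, had log2 fold changes of 0.16 (SE 0.09) and 0.02 (SE 0.07), with edgeR adjusted p-values of 0.464 and 0.938. Of 11 tested proteases and cofactors that process or cut SLRPs 1 passed, Mmp14, a membrane-bound collagenase, which rose from 501.8 ± 31.24 to 686.0 ± 65.11 TMM-normalized counts (log2 fold change 0.45, SE 0.09, adjusted p = 0.247). The most abundant of these per exon length were the serine protease Htra1, with 7142 ± 837.9 and 6844 ± 922.3 counts, and the aggrecanase Adamts4, with 1332 ± 193.3 and 1095 ± 224.8 (adjusted p = 0.840 and 0.460). Of 20 tested growth factors and receptors that SLRPs bind 0 passed in edgeR, limma-voom or DESeq2 and 4 had an unadjusted edgeR p under 0.05. The most abundant per exon length, the integrin chain Itgb1 and the endocytic receptor Lrp1, had log2 fold changes of -0.27 (SE 0.10) and 0.28 (SE 0.16), with adjusted p-values of 0.371 and 0.508. In all 5 lists together, 21 of the 86 tested genes had an unadjusted edgeR p under 0.05, beside 11.7% of all genes tested.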

How the data were processed

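Hippocampal total RNA of 8 male mice (4 per genotype) was sequenced, a library for each mouse. Per the methods and processing notes, the authors used STAR 2.5.3a with mm10 (GRCm38.p5), brought the libraries to a common depth by resampling and counted reads per Ensembl gene. The deposited counts are whole numbers per gene and library. The authors also deposited the log2 fold changes, p-values and q-values of their own limma-voom comparison, which were not used. Resampling removes differences in depth but also any signal carried by the total amount of RNA.

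Of 25834 genes, 16251 passed filterByExpr, run with genotype as the group, a minimum count of 10 and a minimum total of 15. Counts were scaled by TMM and tested by quasi-likelihood in edgeR 4.0.16 (R 4.3.3) over all genes, with Benjamini-Hochberg adjustment and the study's FDR of 0.25. Normalized counts are on the scale of the mean effective library. A standard error is the log2 fold change divided by the square root of F. No covariate was used. Libraries had nearly equal depth, so depth does not set their precision apart, and no pair looked like 1 library deposited again, with chi-square values of 9.08 or more per gene. The fit was tested on simulated data.

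Correlations used log2(CPM + 0.5) minus the genotype mean. Positions and exon lengths came from GENCODE M21 (GRCm38), which matched 25696 identifiers, and promoters from RefSeq. The members, the 5 pathway lists and the 9 marker lists were chosen with earlier results of these data known. Named genes were the 10 members, the 3 genes most like each of Ogn, Omd and Dcn, genes within 100 kb of the chromosome 13 cluster, the 2 most abundant genes of each list per exon length, and of each pathway list those past the threshold (at most 4, by smallest p); a few genes that this rule names are not reported here. Other SLRP genes near members were named after their values were seen. Alternatives were limma-voom (limma 3.58.1), DESeq2 1.42.0, its size factors in edgeR, no scaling, no filter, a filter of 10 counts per library, a block on the replicate number, the meningeal score as a covariate, an FDR of 0.05 and each library left out. Plots were drawn with matplotlib 3.10.9.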

Additional observations from a re-analysis of the deposited data

Results flagged for a closer look

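Of the 20 groups of 4 libraries formed by 10 SLRP genes and both genotypes, 2 had a library far from the rest by Dixon's ratio, the gap to the nearest library over the range of the group, and chance gives about 1 in 20. For Bgn, control 2 (858.7 TMM-normalized counts) stood above the other controls (571.9 to 609.2), with a ratio of 0.87. For Ecm2, SAP97-cKO 4 (226.3 TMM-normalized counts) stood below the other SAP97-cKO libraries (286.1 to 294.6), with a ratio of 0.875. These were the libraries with the highest and the lowest meningeal fibroblast marker score, 0.947 and -1.15, whose part in the Bgn and Ecm2 values was not tested.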

How the results depend on the processing

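The number of genes called depended on the processing, while the median log2 fold change of all genes stayed between -0.06 and 0.00. Beside 46 genes called lower and 2 higher, 1 member and 4 genes of the pathway lists, DESeq2 called 588 lower, 445 higher, 7 members and 14 pathway genes. Without scaling there were 94 lower, 1 higher and 3 members, and without a filter 89 lower, 15 higher and 4 members. With the meningeal score as a covariate edgeR called 0 genes lower, 0 higher, 0 members and 0 pathway genes, where an unadjusted p under 0.05 was found for 232 lower and 413 higher genes and 4 pathway genes. At an FDR of 0.05 edgeR likewise called 0 in each, with 1139 lower and 768 higher genes and 21 pathway genes at an unadjusted p under 0.05. The counts with the score, which follows the genotype, were in part fixed in advance. DESeq2 called 6.36% of all genes tested. Leaving out 1 library at a time gave 0 to 960 genes lower, 0 to 715 higher, 0 to 7 members and 0 to 14 pathway genes, and the cause was not tested. Limma-voom, DESeq2's size factors in edgeR and the stricter filter kept each of these counts within 1.5 times. The sources used here do not say if the replicate numbers pair the mice. The correlation of same-numbered libraries was -0.084, 0.215, 0.085 and 0.262. Of the other genotype's libraries, controls 2, 3 and 4 and SAP97-cKO 2 correlated best with their own number. Control 1 and SAP97-cKO 1, 3 and 4 did not, so a pairing is neither shown nor excluded. With the replicate block edgeR called 234 lower, 22 higher, 4 members and 7 pathway genes. Of 9 neighbouring pairs in level, 3 passed over 8 libraries, 0 with the 4 control libraries alone, which cannot reach the threshold, and 0 to 4 with 1 library left out. Ogn, Omd, Lum, Aspn and Ecm2 were below 0 in every setting run, and Bgn, Fmod and Prelp in all but the covariate. Omd, at 6.077 to 123.5 normalized counts, is the member whose depth limits its fold change most, and it was not tested under the stricter filter.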

Other observations

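Dcn varied between libraries of the same genotype together with several genes known to be enriched toward the ventral pole of the hippocampus. These genes were picked after the values of Dcn had been seen, and all genes of a library share its dissection. Their correlations with Dcn (deviations from the genotype means, 8 libraries) are therefore descriptions with no test. Pearson's r with Dcn was 0.98 for Nr2f2, a nuclear receptor, 0.892 for Grp, a neuropeptide, 0.863 for Trhr, the receptor of thyrotropin-releasing hormone, 0.828 for Gpc3, a glypican, and 0.326 for the serotonin receptor Htr2c. The dorsally enriched genes Wfs1 and Lct had r of 0.0803 and -0.503. Grp had 706.2, 361.6, 359.2 and 1120 TMM-normalized counts in control 1 to 4 and 364.5, 700.6, 818.4 and 846.9 in SAP97-cKO 1 to 4, and Trhr had 221.1, 65.75, 115.5 and 357.1, and 111.0, 398.1, 309.9 and 315.5. Control 2, control 3 and SAP97-cKO 1, the 3 libraries lowest in Dcn, were also the 3 lowest in Nr2f2, with 681.4, 618.5 and 437.8 TMM-normalized counts beside 930.3 to 1284 in the others.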
